A study of Mus musculus with 6 samples.

Results

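The genes described here carry out fatty acid oxidation and ketone body synthesis, 33 members of the 55536 genes in the deposited count table. They were taken by symbol from a list of enzymes, carriers and regulators, and all 33 were found, each under 1 Ensembl ID. By the known site of the protein, 17 act in mitochondria, 11 in peroxisomes and 5 elsewhere or in both organelles. The RNA came from 6 liver tumour samples, grown in male C3H mice that were 6 to 8 weeks old when 1000000 cells of HCA-1, which is a mouse liver carcinoma line, were placed under the liver capsule. TSDP is the labels' name for nanoparticles carrying DNIC and sorafenib, the second a kinase inhibitor given for liver cancer. The TSDP group (replicates 1, 2 and 5) received 6 intravenous doses between day 10 and day 23 and the Control group (replicates 3, 4 and 5) was untreated, with tumours taken on day 24 in both. The labels name no group given empty particles or either drug alone, so the agents and the carrier cannot be told apart. The tumour line is a single line in a host liver that has hepatocytes, vessels and immune cells of its own.

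Mitochondria shorten fatty acids by repeated cycles of dehydrogenation, hydration, dehydrogenation and thiolysis, after the acyl chain has been activated to acyl-CoA and carried across the inner membrane as acyl-carnitine. Peroxisomes run a parallel chain that begins with an oxidase and handles very long, branched and bile acid side chains. In liver, the acetyl-CoA made in mitochondria feeds ketone body synthesis during fasting, and the nuclear receptor PPAR alpha drives much of the programme by binding DNA as a pair with RXR at direct repeats of AGGTCA with a 1-base spacer. Hepatocytes are known for high levels of these enzymes, though many of the mitochondrial ones are made in most tissues.

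Promoter sequence is given for 4 members: Fabp1, which had the highest log2 fold change of the 33, Acaa1b and Acaa1a, near-identical copies with unlike values, and Hadhb, which shares its promoter region with Hadha. RefSeq windows (GRCm38.p6, 250 bases before to 50 after the annotated start) were matched by symbol for 28 of the 33 members. Each line shows the 150 bases that end just before the start, with capitals for any match, on either strand, of 4 motifs: a direct repeat of AGGNCA with 1 base between the copies, the TATA box TATAAA, the GC box core GGGCGG and the CCAAT box. The stretches lie at chr6:71199729-71199878 (plus strand) for Fabp1, chr9:119157094-119157243 (minus) for Acaa1b, chr9:119341144-119341293 (plus) for Acaa1a and chr5:30155103-30155252 (plus) for Hadhb.
Fabp1: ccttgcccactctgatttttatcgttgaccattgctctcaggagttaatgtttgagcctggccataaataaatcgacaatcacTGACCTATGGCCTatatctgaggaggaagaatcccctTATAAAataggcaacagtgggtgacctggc
Acaa1b: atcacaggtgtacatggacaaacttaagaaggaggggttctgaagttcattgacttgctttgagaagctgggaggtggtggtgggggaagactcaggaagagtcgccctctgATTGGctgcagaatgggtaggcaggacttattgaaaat
Acaa1a: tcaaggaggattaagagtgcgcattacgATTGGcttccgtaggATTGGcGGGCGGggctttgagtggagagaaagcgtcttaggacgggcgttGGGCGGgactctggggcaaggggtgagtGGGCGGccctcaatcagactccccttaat
Hadhb: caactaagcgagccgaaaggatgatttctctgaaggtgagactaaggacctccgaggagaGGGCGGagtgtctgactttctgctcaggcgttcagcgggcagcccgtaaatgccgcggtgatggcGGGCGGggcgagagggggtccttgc

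In the Fabp1 stretch the long capital run is the reverse complement of the AGGNCA repeat, a loose form of the PPAR and RXR repeat, at 67 to 55 bases before the start, and TATAAA lies at 30 to 25 bases before it. The AGGNCA repeat was found in the windows of 1 of 28 members (Fabp1) and in 0.381% of all 32851 windows, and TATAAA likewise in 1 of 28 and in 13.6%. GGGCGG was in 22 of 28 members and in 35.7% of all windows, and CCAAT in 12 of 28 and in 37.4%. No match of one of these motifs overlapped a match of another in the members' windows. Acaa1a has GGGCGG in its window and Acaa1b does not. Hadha and Hadhb start on opposite strands with 272 bases between their starts, so that their windows share 228 bases. The ratio of observed to expected CpG had a median of 0.538 in the 10 members with windows and a log2 fold change above 1, 0.635 in the other 18 and 0.384 over all windows, taking the higher value where a member had a pair of windows.

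All 33 members had positive log2 fold changes (TSDP over Control), from 0.13 for Acadl to 3.13 for Fabp1, with a median of 0.83 against -0.02 over the 17423 genes tested, of which 47.3% were positive. The value was above 1 in 11 of 33 members, against 8.84% of genes. None passed edgeR's quasi-likelihood test at a Benjamini-Hochberg adjusted p under 0.05, where percent called was 0 over all genes too, and the members' adjusted p ran from 0.326 to 0.707. At an unadjusted p under 0.05, 25 of 33 members were higher and 0 lower, against 8.60% and 4.75% of all genes tested. In 28 of 33 every TSDP library lay above every Control library, against 13.0% of all genes, and in 0 every TSDP library lay below, against 8.76%. Medians were 0.74 for the 17 mitochondrial members and 0.83 for the 11 peroxisomal ones, with 16 and 7 of them at an unadjusted p under 0.05. All 33 passed the filter on low counts.

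Of the libraries, with 32130808 to 38953397 counts each, Control 3 stood apart by its low hepatocyte RNA. The 24 hepatocyte markers, none of them a member, took 4.11%, 7.52% and 2.56% of counts in TSDP 1, 2 and 5, against 0.0195%, 3.20% and 0.515% in Control 3, 4 and 5. All 24 had positive log2 fold changes (median 2.47), and none was at 0 in any library. In 15 of the 24 every TSDP library lay above every Control library, against 13.0% of all genes tested. At an unadjusted p under 0.05 in edgeR's test 4 of them were higher, against 8.60%. Albumin (Alb), their most abundant member, was at 17057, 32268 and 11254 CPM (counts per 1000000 counts) in TSDP 1, 2 and 5, against 62.4, 10295 and 1983 CPM in Control 3, 4 and 5. In bulk tumour RNA, fewer cells of a type and less RNA per cell cannot be told apart. Markers of liver sinusoidal endothelium took 0.0356% to 0.0610% of counts in TSDP and 0.0225% to 0.0322% in Control, and Kupffer cell markers 0.0130% to 0.0373% and 0.00602% to 0.0152%. In Control 3 the endothelial reads were mostly of Fcgr2b (8162), with 1 of Clec4g. The Kupffer cell reads there were mostly of Marco (919) and Cd163 (676), with 2 of Clec4f. The median marker in Control 3 was at 4.24% of its TSDP mean for endothelium and 12.1% for Kupffer cells. T cell markers took 0.00957% to 0.0104% in TSDP and 0.00296% to 0.00918% in Control, and B cell markers 0.000303% to 0.000741% and 0.000132% to 0.000224%. Fibroblast markers took 0.420% to 0.772% and 0.306% to 0.644%, adipocyte markers at most 0.00128% and 0.00144%, and skeletal muscle markers at most 0.000180% and 0.000177%. Most adipocyte marker reads were of Lipe (319 to 513 per library), while Adipoq had at most 3. Most skeletal muscle marker reads were of Mylpf (32 to 39 per library). Erythroid markers took at most 0.00497% in TSDP and 0.0647% in Control 3. The 10 hepatocellular carcinoma markers took 0.304% to 0.856% of counts in TSDP and 0.461% to 1.06% in Control, and 5 of the 9 tested had positive log2 fold changes, from -0.64 for H19 to 0.86 for Afp. Spp1 led them at 1968 to 7112 CPM in TSDP and 3215 to 8659 CPM in Control, the keratins Krt8 and Krt18 were at 515 CPM or more in TSDP and 429 CPM or more in Control, and Igf2 was near 0 throughout. Afp, the fetal liver protein, was low, at 4.22 to 9.15 CPM in TSDP and 3.26 to 3.66 CPM in Control.

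**Figure D1:**
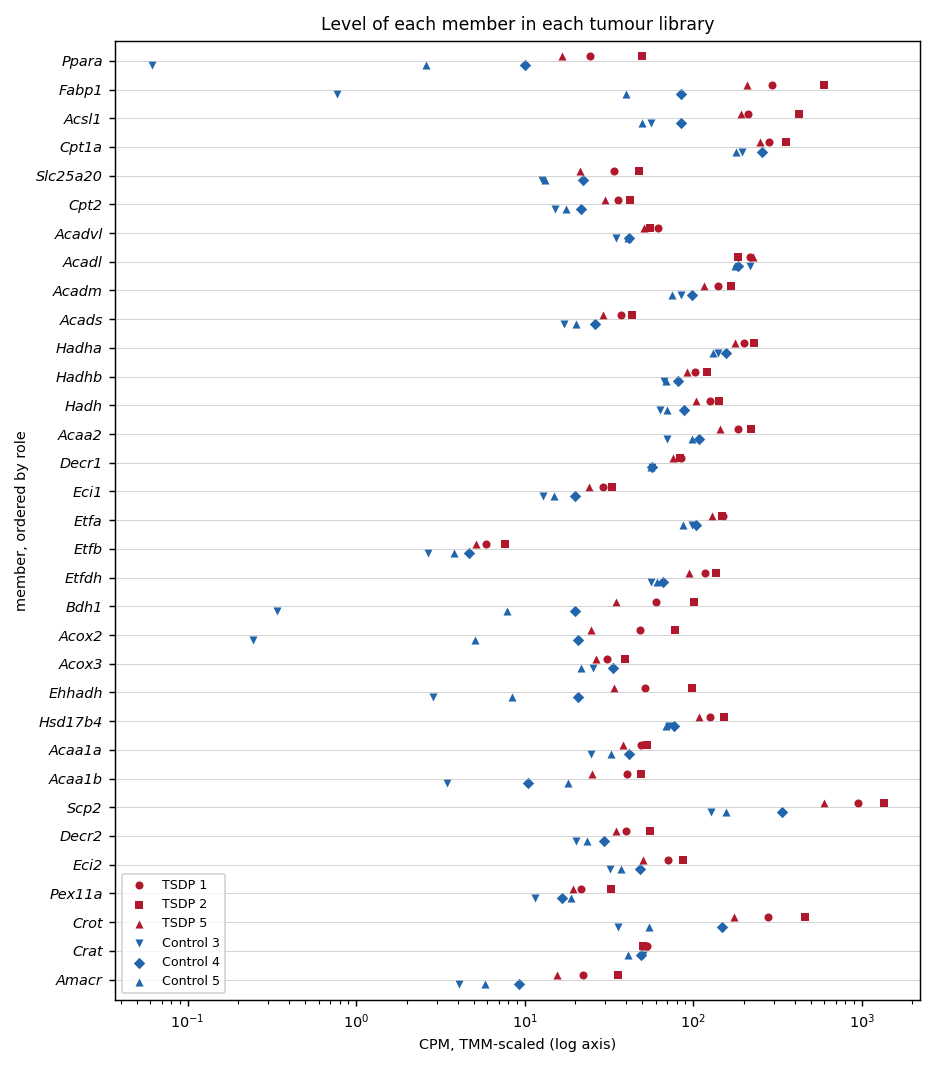
Level of each member in CPM on a log axis, 1 point per library, with TSDP libraries in red above Control libraries in blue on each line. Control 3 lies far to the left for Ppara, Fabp1, Bdh1 and Acox2 (0.0615 to 0.768 CPM), while Acadl and Crat stay together in all 6 libraries.

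The regulator Ppara encodes PPAR alpha. It had 24.6, 49.9 and 16.7 CPM in TSDP 1, 2 and 5, against 0.0615, 10.1 and 2.60 CPM in Control 3, 4 and 5, a log2 fold change of 2.84 ± 1.26 (SE). The groups did not overlap, but TSDP 5 and Control 4 lay close together, and Control 3 rested on 2 reads.

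Fatty acids are carried in the cytosol by FABP1 and activated by ACSL1. Fabp1 was counted at 294.5, 597 and 208 CPM in TSDP 1, 2 and 5, against 0.768, 84.8 and 40.2 CPM in Control 3, 4 and 5, a log2 fold change of 3.13 ± 1.34 (SE). Its highest library stood 777 times above its lowest. Acsl1, the long-chain acyl-CoA synthetase of liver and fat, was at 212, 424 and 193 CPM in TSDP 1, 2 and 5, against 56.2, 85.0 and 49.996 CPM in Control 3, 4 and 5. Its log2 fold change of 2.12 ± 0.38 (SE) came with Control libraries near each other, Control 3 included, and a gap above Control 4.

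The carnitine shuttle has 3 members here. Cpt1a, which makes acyl-carnitine at the outer membrane and is the main control point of the pathway, had 283, 355 and 249.7 CPM in TSDP 1, 2 and 5, against 194, 256 and 181 CPM in Control 3, 4 and 5 (log2 fold change 0.49 ± 0.20, SE). Control 4 exceeded TSDP 5, so the groups overlapped. Slc25a20, the carnitine-acylcarnitine carrier of the inner membrane, was at 33.7, 47.6 and 21.5 CPM in TSDP 1, 2 and 5, against 12.8, 22.3 and 13.1 CPM in Control 3, 4 and 5, a log2 fold change of 1.09 ± 0.35 (SE) with the same overlap. Cpt2, which returns the acyl group to CoA inside, reached 35.7, 42.1 and 30.1 CPM in TSDP 1, 2 and 5, against 15.1, 21.5 and 17.5 CPM in Control 3, 4 and 5. Cpt2 had no overlap and a log2 fold change of 1.00 ± 0.19 (SE).

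The acyl-CoA dehydrogenases, which take the first electrons, split by chain length. Acadl, for long chains, had 218, 185 and 228 CPM in TSDP 1, 2 and 5, against 217, 184 and 177 CPM in Control 3, 4 and 5, the smallest log2 fold change of all members (0.13 ± 0.14, SE). Control 3 was the third highest of 6 libraries for Acadl. Acadvl, for very long chains, was at 62.0, 55.4 and 50.9 CPM in TSDP 1, 2 and 5, against 34.8, 41.8 and 41.3 CPM in Control 3, 4 and 5 (0.51 ± 0.13, SE). Acadm, for medium chains, had 141, 169 and 117 CPM in TSDP 1, 2 and 5, against 85.3, 99.1 and 74.5 CPM in Control 3, 4 and 5 (0.72 ± 0.18, SE). Neither overlapped between groups, nor did Acads, for short chains, at 29.3 to 43.3 CPM in TSDP and 17.0 to 26.2 CPM in Control (0.80 ± 0.21, SE).

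HADHA and HADHB form the trifunctional protein, which completes the cycle for long chains. Hadha was counted at 199.8, 229.5 and 178 CPM in TSDP 1, 2 and 5, against 141, 157 and 131 CPM in Control 3, 4 and 5 (log2 fold change 0.50 ± 0.14, SE). Hadhb had 102, 121 and 91.5 CPM in TSDP 1, 2 and 5, against 67.3, 81.0 and 68.8 CPM in Control 3, 4 and 5 (0.53 ± 0.14, SE). The partners kept a near-constant ratio: that of Hadha to Hadhb counts stayed between 1.90 and 1.95 in TSDP and 1.90 and 2.09 in Control. Hadh, the short-chain 3-hydroxyacyl-CoA dehydrogenase, stood at 103 to 142 CPM in TSDP and 63.2 to 87.7 CPM in Control (0.75 ± 0.18, SE). Acaa2, the mitochondrial thiolase of medium chains, had 185, 219 and 145 CPM in TSDP 1, 2 and 5, against 69.9, 108 and 98.1 CPM in Control 3, 4 and 5 (0.99 ± 0.22, SE). The groups of all 4 genes did not overlap.

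Steps for unsaturated fatty acids are made by DECR1 and ECI1. Decr1, the mitochondrial dienoyl-CoA reductase, had 84.6, 84.1 and 76.4 CPM in TSDP 1, 2 and 5, against 57.0, 56.6 and 56.0 CPM in Control 3, 4 and 5. Its Control libraries were nearly equal, and its log2 fold change of 0.53 ± 0.09 (SE) had the smallest error among the 33. Eci1, the enoyl-CoA isomerase, stood at 24.1 to 32.8 CPM in TSDP and 12.9 to 19.9 CPM in Control (0.86 ± 0.20, SE).

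Electrons of the dehydrogenases pass through the flavoprotein ETFA with ETFB to ETFDH in the inner membrane. Etfdh had 118, 137 and 94.4 CPM in TSDP 1, 2 and 5, against 56.4, 66.3 and 60.9 CPM in Control 3, 4 and 5, a log2 fold change of 0.93 ± 0.16 (SE). Etfa stood at 129.6 to 149.8 CPM in TSDP and 87.2 to 104 CPM in Control (0.56 ± 0.12, SE), and Etfb at 5.13 to 7.67 CPM in TSDP and 2.67 to 4.70 CPM in Control (0.74 ± 0.28, SE). All 3 were without overlap. ETFA and ETFB are partners in 1 dimer. Per exon length Etfa averaged 77.5 ± 6.03 RPKM (CPM per kilobase of exon) in TSDP and 52.6 ± 4.64 RPKM in Control. Etfb averaged 5.36 ± 1.12 RPKM in TSDP and 3.21 ± 0.873 RPKM in Control (SD, n = 3 each). It rested on 185 to 267 reads in TSDP and 87 to 155 in Control. The cause of the gap between the partners was not tested, so it need not reflect a true difference in RNA.

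The ketone body step is represented by Bdh1, which turns acetoacetate into 3-hydroxybutyrate. Bdh1 was at 59.8, 101 and 34.7 CPM in TSDP 1, 2 and 5, against 0.338, 19.8 and 7.91 CPM in Control 3, 4 and 5, a log2 fold change of 2.80 ± 1.15 (SE). Unlike the other 16 mitochondrial members, it was nearly absent from Control 3, at 0.519% of its TSDP mean, against a median of 51.0% over the 17.

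Peroxisomal oxidation begins with the oxidases. Acox2, which acts on branched chains and bile acid intermediates, had 48.3, 77.7 and 24.8 CPM in TSDP 1, 2 and 5, against 0.246, 20.7 and 5.04 CPM in Control 3, 4 and 5 (log2 fold change 2.54 ± 1.23, SE). Acox3, another branched-chain oxidase, stood at 26.6 to 39.4 CPM in TSDP and 21.6 to 33.4 CPM in Control, overlapping (0.27 ± 0.22, SE). The ratio of Acox2 to Acox3 counts was 0.934 to 1.97 in TSDP and 0.00972 to 0.619 in Control.

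The next steps are shared by EHHADH and HSD17B4, peroxisomal enzymes that each combine a hydratase with a dehydrogenase. Ehhadh had 51.5, 98.2 and 34.1 CPM in TSDP 1, 2 and 5, against 2.86, 20.7 and 8.41 CPM in Control 3, 4 and 5 (log2 fold change 2.53 ± 0.75, SE). Hsd17b4 was at 126, 153 and 108 CPM in TSDP 1, 2 and 5, against 71.6, 77.0 and 69.3 CPM in Control 3, 4 and 5 (0.83 ± 0.15, SE). Both were without overlap, but Ehhadh spread 34.4-fold over the 6 libraries and Hsd17b4 2.21-fold.

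Thiolysis in peroxisomes is done by the thiolases ACAA1A and ACAA1B and by the longer product of Scp2. Acaa1a had 48.7, 53.3 and 38.4 CPM in TSDP 1, 2 and 5, against 24.7, 41.4 and 32.7 CPM in Control 3, 4 and 5, overlapping (log2 fold change 0.51 ± 0.22, SE). Acaa1b was counted at 40.6, 49.2 and 25.2 CPM in TSDP 1, 2 and 5, against 3.47, 10.5 and 18.1 CPM in Control 3, 4 and 5, without overlap (1.84 ± 0.58, SE). Acaa1b was higher in Control 5 than in Control 4, the reverse of the hepatocyte markers. The copies are near-identical, so reads may be shared between them and both values are uncertain. Scp2, whose gene also makes a sterol carrier protein, reached 950.2, 1354 and 597 CPM in TSDP 1, 2 and 5, against 127, 336 and 156 CPM in Control 3, 4 and 5 (2.23 ± 0.48, SE). In Control 3 it was still at 13.1% of its TSDP mean.

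**Figure D2:**
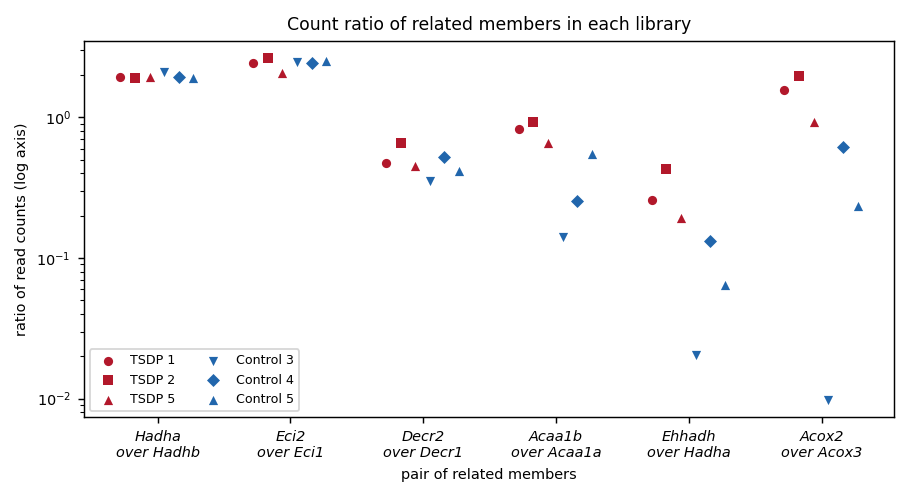
Ratio of read counts between related members in each of the 6 libraries, on a log axis, with TSDP in red left of Control in blue. Hadha over Hadhb stays at 1.90 to 2.09 and Eci2 over Eci1 at 2.08 to 2.65, while Acox2 over Acox3 spans 0.00972 to 1.97.

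Among the other peroxisomal members, Decr2, the peroxisomal dienoyl-CoA reductase, had 40.2, 55.2 and 34.7 CPM in TSDP 1, 2 and 5, against 20.1, 29.7 and 23.4 CPM in Control 3, 4 and 5 (log2 fold change 0.83 ± 0.22, SE). Eci2, a peroxisomal enoyl-CoA isomerase, stood at 50.2 to 87.2 CPM in TSDP and 31.96 to 48.6 CPM in Control (0.82 ± 0.25, SE). The isomerases of the organelles kept a near-constant ratio, Eci2 over Eci1 being 2.08 to 2.65 in TSDP and 2.45 to 2.53 in Control. Pex11a, which elongates peroxisomes before they divide, was at 21.6, 32.7 and 19.3 CPM in TSDP 1, 2 and 5, against 11.5, 16.7 and 18.9 CPM in Control 3, 4 and 5 (0.64 ± 0.27, SE). TSDP 5 and Control 5 were almost level for Pex11a.

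Crot, which hands chain-shortened acyl groups from peroxisomes to carnitine, had 278, 461 and 176 CPM in TSDP 1, 2 and 5, against 35.9, 148 and 54.7 CPM in Control 3, 4 and 5 (log2 fold change 1.94 ± 0.61, SE). Crat, the carnitine acetyltransferase of both organelles, stood at 50.7 to 53.5 CPM in TSDP and 41.3 to 50.2 CPM in Control (0.15 ± 0.11, SE). The ratio of Crot to Crat counts was 3.39 to 9.09 in TSDP and 0.715 to 3.03 in Control. Amacr, the racemase that prepares branched chains for oxidation in both organelles, reached 22.3, 35.7 and 15.5 CPM in TSDP 1, 2 and 5, against 4.09, 9.27 and 5.81 CPM in Control 3, 4 and 5 (1.94 ± 0.42, SE). Crot, Crat and Amacr were all without overlap, though the Crat values differed by little.

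**Figure D3:**
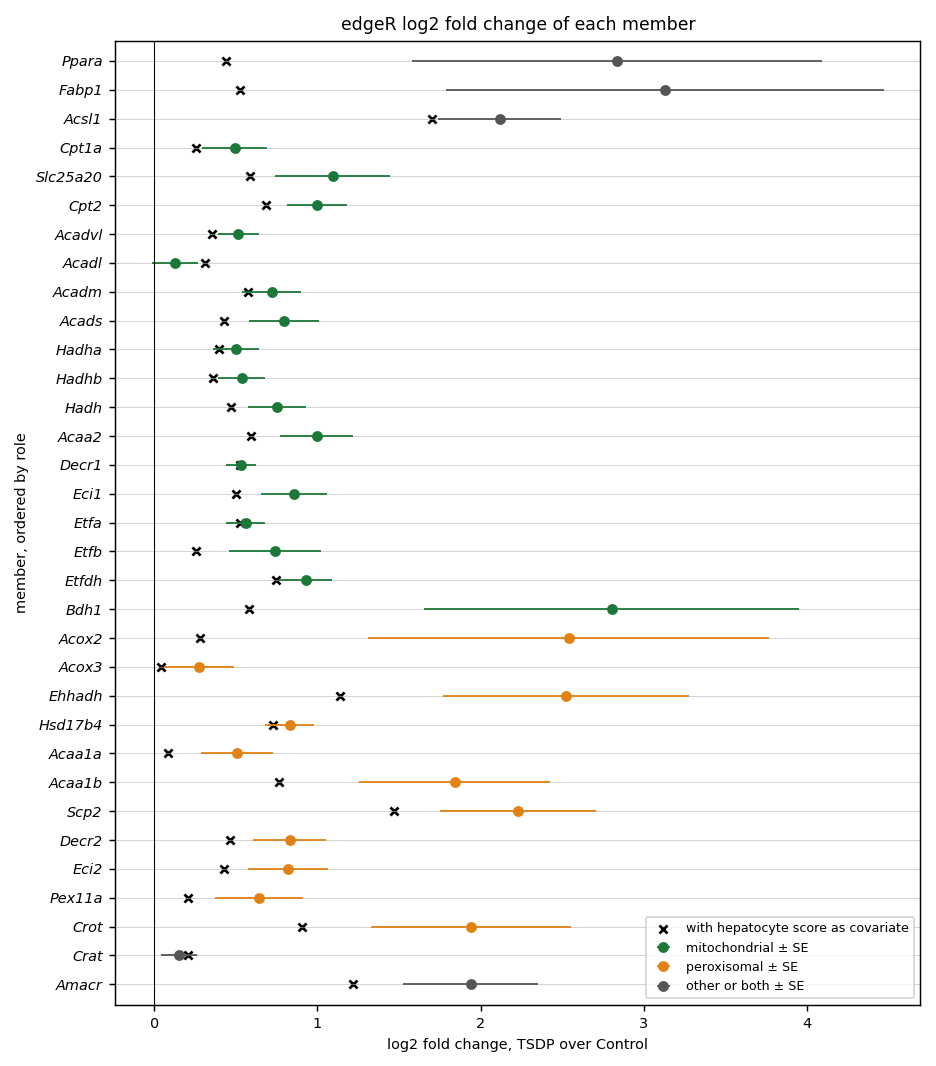
edgeR log2 fold change (TSDP over Control) of each member with its standard error, mitochondrial members in green, peroxisomal in orange and others in grey, and crosses for the fit that also holds the hepatocyte score. The filled points run from 0.13 (Acadl) to 3.13 (Fabp1), and the crosses of Ppara, Fabp1, Bdh1 and Acox2 lie at 0.28 to 0.58.

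Levels were compared between genes per exon length. In TSDP tumours Fabp1 led at 663 ± 369 RPKM, followed by Scp2 at 278 ± 109, Acaa2 at 121 ± 24.5 and Acadl at 105 ± 11.1 RPKM (SD, n = 3). In Control tumours Acadl led at 96.0 ± 10.8 RPKM, followed by Fabp1 at 75.8 ± 76.0, Acaa2 at 60.7 ± 13.1 and Scp2 at 59.3 ± 32.6 RPKM (SD, n = 3), and the means of all 4 lay within 1 SD of that of Fabp1. Acsl1 was 10th of 33 in TSDP and 23rd in Control, Ehhadh 15th and 26th, and Bdh1 17th and 30th. Crat was 27th in TSDP and 17th in Control. Together the 33 members took 0.419%, 0.546% and 0.320% of counts in TSDP 1, 2 and 5, against 0.161%, 0.242% and 0.177% in Control 3, 4 and 5. The 11 peroxisomal members averaged 0.172% ± 0.0608 of counts in TSDP and 0.0539% ± 0.0232 in Control, and the 17 mitochondrial members 0.183% ± 0.0215 in TSDP and 0.123% ± 0.0132 in Control (SD, n = 3 each). Scp2 had the most counts of the 11 in every library, so the peroxisomal share leans on it. The median log2 fold changes, which weigh each gene alike, were 0.83 for peroxisomal and 0.74 for mitochondrial members.

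The members ran with the hepatocyte markers to unequal degrees. By the mean log2 CPM of the 24 markers the libraries ranked, from low to high, Control 3, Control 5, Control 4, TSDP 5, TSDP 1 and TSDP 2. The levels of 18 of 33 members followed this order in full, against 5.57% of all genes tested, 28 were highest in TSDP 2 against 31.3%, and 23 were lowest in Control 3 against 26.6%. In Control 3 the hepatocyte markers had a median of 0.278% of their TSDP mean, the mitochondrial members 51.0% and the peroxisomal members 46.0%. Ppara (0.202%), Fabp1 (0.209%), Acox2 (0.489%) and Bdh1 (0.519%) stood as low there as the markers, Ehhadh (4.66%), Acaa1b (9.06%), Crot (11.8%), Scp2 (13.1%), Amacr (16.7%) and Acsl1 (20.3%) lay between, and Acadl (103%) and Crat (96.5%) were level with TSDP. When that score was added to the fit, the 33 log2 fold changes stayed positive with a median of 0.50, from 0.04 for Acox3 to 1.70 for Acsl1, and 0 passed at edgeR's adjusted p (smallest 0.705). At an unadjusted p under 0.05, 13 members were then higher, against 2.68% of all genes: Acsl1, Cpt2, Acadm, Hadh, Acaa2, Decr1, Eci1, Etfa, Etfdh, Ehhadh, Hsd17b4, Scp2 and Amacr. The covariate brought Ppara to 0.44, Fabp1 to 0.53, Bdh1 to 0.58 and Acox2 to 0.28, and left Scp2 at 1.47, Etfdh at 0.74 and Decr1 at 0.52. Every TSDP library had a higher score than every Control library, so this fit cannot tell group and hepatocyte content apart. The part of hepatocyte content in these differences was not tested beyond these values.

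**Figure D4:**
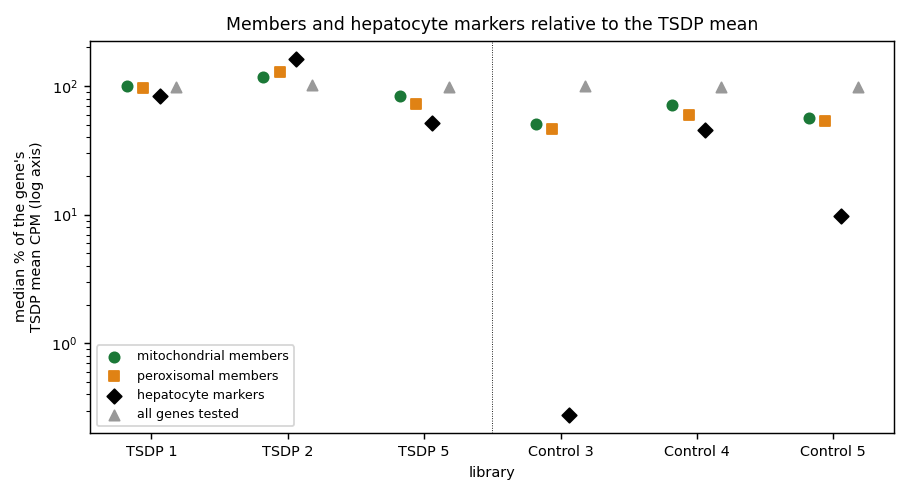
For each library, the median over a gene list of each gene's CPM as a percentage of its mean in TSDP, on a log axis, TSDP libraries left of Control. Hepatocyte markers span 0.278% in Control 3 to 164% in TSDP 2, mitochondrial members 51.0% to 117%, peroxisomal members 46.0% to 128%, and all genes tested stay near 100%.

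TSDP 5 and Control 4 lay next to each other in that order, with hepatocyte scores of 8.94 and 8.79 log2 CPM. Single hepatocyte markers did not match, the ratio of TSDP 5 to Control 4 running from 0.344 for Hp to 4.49 for Tat. By share of counts the markers were lower in TSDP 5 (2.56%) than in Control 4 (3.20%). The near-equal scores therefore need not mean equal hepatocyte RNA. In this pair of libraries, singled out after their values were seen and with no replicate check, 29 of 33 members were higher in TSDP 5, against 51.9% of all genes tested. The ratio of TSDP 5 to Control 4 was 2.46 for Fabp1, 2.40 for Acaa1b, 2.27 for Acsl1 and 1.77 for Scp2. It was under 1 for Cpt1a (0.976), Slc25a20 (0.963), Acaa1a (0.928) and Acox3 (0.796).

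Leaving out Control 3 kept all 33 log2 fold changes positive, with 25 members higher at an unadjusted p under 0.05 against 7.01% of genes, and without TSDP 2 there were 19, against 4.36%. Without both, 18 were, against 4.59%. Single values moved more, in both directions. Without Control 3, Ppara was at 2.26, Fabp1 at 2.55, Bdh1 at 2.24 and Acox2 at 1.97. Without Control 4, Ppara was at 4.48, Fabp1 at 4.16, Bdh1 at 3.96 and Acox2 at 4.22, and limma-voom on all 6 libraries gave 4.39 for Ppara, 4.51 for Fabp1, 3.92 for Bdh1 and 3.88 for Acox2. DESeq2 called 16 members higher and 0 lower at its adjusted p under 0.05, against 2.98% and 0.397% of genes with an adjusted p. These were Acsl1, Cpt2, Acadm, Acads, Hadh, Acaa2, Decr1, Eci1, Etfa, Etfdh, Hsd17b4, Acaa1b, Scp2, Decr2, Crot and Amacr, with adjusted p from 1.59e-06 for Acsl1 to 0.0400 for Acads. limma-voom called 0 members.

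Other genes of the pathway were counted from lists beside the members, 76 genes of which 73 were tested. Positive log2 fold changes were found in 61 (median 0.39), against 47.3% of all genes tested. In edgeR's test 0 passed at an adjusted p under 0.05, as over all genes tested. At an unadjusted p under 0.05, 28 were higher and 0 lower, against 8.60% and 4.75% of all genes tested. In the list drawn up for further mitochondrial oxidation, not all of whose proteins act in mitochondria, 15 of 18 tested were positive (median 0.23). Of these, 6 were at that p. Acad11, an acyl-CoA dehydrogenase, stood at 40.7 to 91.6 CPM in TSDP and 9.00 to 23.0 CPM in Control (2.09 ± 0.44, SE), and Acsl3, an acyl-CoA synthetase, at 45.6 to 79.5 and 68.1 to 102 CPM (-0.39 ± 0.25, SE). In the list of further peroxisomal genes 23 of 24 were positive (median 0.64), with 13 at that p. Pecr, a peroxisomal enoyl-CoA reductase, stood at 18.3 to 26.6 CPM in TSDP and 7.93 to 11.9 CPM in Control (1.16 ± 0.22, SE), and Slc25a17, a peroxisomal carrier, at 57.1 to 75.5 and 60.3 to 73.5 CPM (-0.02 ± 0.14, SE). In the list of further ketone body genes 6 of 7 were positive (median 0.35), with 3 at that p. Acat1, the mitochondrial acetoacetyl-CoA thiolase, stood at 166 to 298.5 CPM in TSDP and 66.8 to 126 CPM in Control (1.42 ± 0.32, SE), and Bdh2, a cytosolic dehydrogenase, at 3.51 to 6.24 and 4.77 to 6.45 CPM (-0.09 ± 0.27, SE).

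In the list of PPAR alpha partners and other target genes 17 of 24 were positive (median 0.33), against 47.3% of all genes tested. At an unadjusted p under 0.05, 6 were higher, against 8.60%. Creb3l3, a transcription factor of fasting liver, stood at 68.4 to 107 CPM in TSDP and 34.7 to 47.3 CPM in Control (log2 fold change 1.08 ± 0.22, SE). Slc27a1, a fatty acid transporter, stood at 57.6 to 107 CPM in TSDP and 110.5 to 134 CPM in Control (-0.49 ± 0.24, SE), the 1 gene of the 76 whose TSDP libraries all lay below Control. Over all genes tested, 8.76% had every TSDP library below every Control library. All TSDP libraries lay above all Control libraries in 7 of the 24, against 13.0% of all genes tested. The lowest and highest log2 fold changes of the list belonged to Pdk4 and Cyp4a12a, named after their values were seen. Pdk4, a kinase that spares glucose in fasting, stood at 18.0 to 38.8 CPM in TSDP and 17.9 to 82.9 CPM in Control (-0.87 ± 0.58, SE), overlapping. Cyp4a12a, a fatty acid omega-hydroxylase, stood at 28.0 to 78.1 CPM in TSDP and 0 to 2.20 CPM in Control, without overlap (5.18 ± 1.14, SE). Control 3 had no Cyp4a12a read, and reads may be shared with near-identical copies of this gene family, so its value is uncertain.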

How the data were processed

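Tumour RNA (RNeasy kit) from 6 samples was sequenced after KAPA mRNA HyperPrep library preparation, per the labels' protocols. Read trimming by Trimmomatic 0.38, HISAT2 2.1.0, featureCounts 2.0.0 and the tools CASAVA, FastQC and MultiQC are listed in the submitters' processing notes. Genome build, annotation and strand setting were not given in the sources used here; without strand, a gene and its antisense or overlapping neighbour share uncertain reads. Raw counts were deposited for 55536 genes, of which 33296 had at least 1 read. The authors also deposited a normalized signal, which equals each count over a constant of its library (relative departure at most 5.1e-15). It gave the gene symbols and entered no test.

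Groups came from the sample titles, 3 TSDP and 3 Control. No label says whether samples came from separate animals or pools, so p-values measure only the spread between these samples, which may be technical. edgeR 4.0.16 (R 4.3.3) fitted an intercept and the group to 17423 genes kept by filterByExpr (minimum count 10), with TMM factors, legacy quasi-likelihood and Benjamini-Hochberg adjustment over all of them at 0.05. Each SE is the size of the log2 fold change divided by the square root of F. CPM used TMM-scaled totals, and RPKM the exon-union length of GENCODE M21, which held 55450 of the gene IDs. The hepatocyte score is the mean log2 CPM (prior count 2) of the 24 markers. Alternatives used DESeq2 1.42.0, limma 3.58.1, other scaling and filters, the score as a covariate and each library left out. The fits were also run on simulated data with large planted changes and no library set apart as Control 3 is. That run did not cover small changes.

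All members were named, with every library's value printed for a set of main enzymes and for the member with the smallest p in each role, and for each pathway list the gene with the smallest p in each direction. The members and lists were chosen with earlier results of these data known.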

Additional observations from a re-analysis of the deposited data

How the results depend on the processing

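All 33 members kept positive log2 fold changes under 14 other settings and 1 chosen after seeing the data (without Control 3 and TSDP 2). No paired analysis was possible because the groups share only replicate number 5. Calls depended on the tool: edgeR and limma-voom called 0 genes and DESeq2 620 (547 higher, 73 lower), 16 of them members; without the filter on low counts edgeR called 1 gene, higher, and without Control 3 and TSDP 2 it called 2, both higher, neither count holding a member. At an unadjusted p under 0.05, 2326 genes (1499 higher, 827 lower) and 25 members were found; the covariate left 972 genes (467 higher, 505 lower) and 13 members, and without Control 3 and TSDP 2 there were 1511 genes (803 higher). Total counts in place of TMM gave 1245 higher and 1132 lower. Leaving out 1 library gave 1343 (without TSDP 1) to 3383 genes (without Control 4), 773 (without TSDP 2) to 2382 higher (without Control 4), 306 (without TSDP 1) to 1001 lower (without Control 4), 19 to 29 members, and 0 adjusted calls. Fewer lower genes were also found without Control 3 (393) and without Control 5 (510). Medians ran from 0.58 to 0.90 for mitochondrial and 0.69 to 1.00 for peroxisomal members in those fits. Only some of the pathway genes were followed through the other settings, so sign changes in the rest were not counted. Among those followed, the sign of 3 turned. Bdh2 was 0.23 with the covariate, 0.06 without Control 3, 0.11 without TSDP 2 and 0.24 without both. Over the fits that leave out 1 library, Bdh2 ran from -0.26 to 0.11. Slc25a17 was 0.076 with the covariate, 0.064 without Control 5, 0.080 without TSDP 2 and 0.063 without Control 3 and TSDP 2. Over the fits that leave out 1 library, Slc25a17 ran from -0.10 to 0.080. Acsl3 was 0.015 with the covariate. The cause of these shifts was not tested. With 3 libraries a group and Control 3 at 2 to 25 reads for Ppara, Acox2, Bdh1 and Fabp1, their fold changes are loosely set.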
